A study of Mus musculus with 6 samples.

Results

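The core replication-dependent histone genes encode H2A, H2B, H3 and H4, the proteins around which nuclear DNA is wrapped. They were taken here as every gene of the count table whose symbol is H2ac, H2bc, H3c or H4c followed by a number, which gave 62 of 21652 genes. H2A had 18 of them, H2B 19, H3 12 and H4 13. The values are ribosome profiling counts, that is, reads of the mRNA fragments that ribosomes protect from nuclease. They were measured in 3 libraries of MIN6 cells with the sgLTN1 guide and 3 of MIN6 cells with the sgNT guide. MIN6 is a mouse pancreatic beta cell line derived from an insulinoma. LTN1 (listerin) is a ubiquitin ligase that marks incomplete proteins stuck on the large ribosomal subunit. The labels do not spell out sgNT, which was read as a guide without a target. The labels give genotype, cell line and 1 batch shared by all 6 libraries, so no batch could be compared. Whether each group was a clone or a pool, and whether its libraries came from separate cultures, is not given in the sources used here, so the p-values measure the spread between these libraries, which may be technical.

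Replication-dependent histone genes lie in clusters, mostly without introns, and are transcribed mainly in S phase, when new DNA has to be packed. Their mRNAs end in a conserved stem-loop in place of a poly(A) tail, and the stem-loop binding protein SLBP carries them through processing, export, translation and decay. Many copies of a family encode the same or nearly the same protein. A ribosome profiling count depends on both the amount of an mRNA and the number of ribosomes on it, and these cannot be told apart in the values used here. In a bulk lysate, fewer cells in S phase and less histone mRNA per cell cannot be told apart either.

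Many H2A and H2B genes are arranged head to head, so that the 2 genes of a pair share the DNA between their start sites. Of the members, 52 were found by symbol in a RefSeq promoter table of build GRCm38.p6, which is not the build of the counts and was used for sequence and neighbourhood only. It held 9 such pairs on chromosome 13 with starts at most 500 bases apart. The stretches between the starts of 2 pairs are shown because their genes recur below, with the 250 bases before the start of H3c3 and of H4c4 as examples of the other families. Capitals mark every match, on either strand, to CCAAT, to TATAAA, to the octamer ATTTGCAT, and to GGTCCG, a hexamer of H4 promoters. H2ac11/H2bc11 is chr13:22042950-22043197, H2ac8/H2bc8 is chr13:23571221-23571399 and H4c4 is chr13:23581318-23581567, all on the plus strand, and H3c3 is chr13:23745522-23745771 on the minus strand.
H2ac11/H2bc11: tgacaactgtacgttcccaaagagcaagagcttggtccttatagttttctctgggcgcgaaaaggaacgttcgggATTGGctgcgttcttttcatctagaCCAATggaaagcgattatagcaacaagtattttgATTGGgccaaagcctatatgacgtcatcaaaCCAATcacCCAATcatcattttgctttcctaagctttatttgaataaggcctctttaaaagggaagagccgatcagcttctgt
H2ac8/H2bc8: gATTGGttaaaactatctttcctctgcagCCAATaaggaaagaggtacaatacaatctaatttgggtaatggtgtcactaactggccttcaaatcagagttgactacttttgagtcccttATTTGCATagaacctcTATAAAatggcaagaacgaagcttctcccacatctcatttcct
H3c3: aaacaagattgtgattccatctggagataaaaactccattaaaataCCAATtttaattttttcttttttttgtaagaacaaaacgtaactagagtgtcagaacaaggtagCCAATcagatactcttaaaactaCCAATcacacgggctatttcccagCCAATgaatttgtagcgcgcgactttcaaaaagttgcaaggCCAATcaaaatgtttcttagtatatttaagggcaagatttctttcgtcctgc
H4c4: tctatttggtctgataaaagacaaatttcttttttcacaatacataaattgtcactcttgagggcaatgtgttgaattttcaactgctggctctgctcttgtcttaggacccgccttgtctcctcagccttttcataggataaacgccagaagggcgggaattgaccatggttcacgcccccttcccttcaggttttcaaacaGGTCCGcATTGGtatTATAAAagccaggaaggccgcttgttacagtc

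The letters of these promoters differed between families. CCAAT was in the 250 upstream bases of 17 of 17 H2A and 13 of 13 H2B genes, 8 of 10 H3 genes and 3 of 11 H4 genes (27.3%), against 33.9% of all 32841 promoters in the table. The octamer was in 6 of 17 H2A and 6 of 13 H2B promoters, in 0 of 10 H3 and 0 of 11 H4 promoters, and in 1.6% of all promoters. GGTCCG was in 8 of 11 H4 promoters (72.7%), against 6.72% of all promoters. TATAAA was in 7 of 17 H2A, 7 of 13 H2B, 4 of 10 H3 and 6 of 11 H4 promoters, against 12.4% of all. These are matches of letters and not shown sites of binding, and head-to-head genes are counted on both sides of a shared stretch.

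The libraries held 4993245 to 11198735 gene counts with sgLTN1 and 4373467 to 7802364 with sgNT. Ltn1 checked the labels: its level was 65.3, 71.5 and 64.9 CPM (reads relative to the scaled library size) with sgLTN1 and 143, 145 and 141 CPM with sgNT, a log2 fold change of -1.09 (SE 0.07, edgeR quasi-likelihood test, adjusted p = 9.24e-05). The beta cell label was checked on insulin: Ins2 was at 44079 CPM or more with sgLTN1 and at 44889 CPM or more with sgNT. Of the 10 acinar and ductal markers 0 had enough counts to be tested, and their summed level was 1.62 to 7.49 CPM with sgLTN1 and 2.98 to 4.10 CPM with sgNT.

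The core histone genes together had 3832, 3741 and 4157 CPM in the 3 sgLTN1 libraries and 4210, 4763 and 4870 CPM in the 3 sgNT libraries. Every sgLTN1 library lay below every sgNT library. The means were 3910 ± 219 CPM with sgLTN1 and 4614 ± 354 CPM with sgNT (SD, n = 3 each), a ratio of 0.847. These genes took 0.380% ± 0.025 of all gene counts with sgLTN1 and 0.472% ± 0.046 with sgNT (SD, n = 3 each). Because copies share sequence, a read may have been counted for several genes or for none. The handling of reads with several alignments is not given in the sources used here, and a sum is therefore a level on the scale of this table only.

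The H2B family, whose protein pairs with H2A in the nucleosome, had 1246, 1178 and 1358 CPM with sgLTN1 and 1383, 1514 and 1603 CPM with sgNT. The groups did not overlap, and the mean was 1261 ± 90.7 CPM with sgLTN1 and 1500 ± 110 CPM with sgNT (SD, n = 3 each), a log2 ratio of -0.25. The H4 family, which forms a tetramer with H3, had 495, 482 and 502 CPM with sgLTN1 and 554, 574 and 603 CPM with sgNT. Its groups did not overlap either, with means of 493 ± 10.2 CPM with sgLTN1 and 577 ± 24.6 CPM with sgNT (SD, n = 3 each) and a log2 ratio of -0.23.

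The H3 family had 1591, 1589 and 1785 CPM with sgLTN1 and 1773, 2162 and 2107 CPM with sgNT. The third sgLTN1 library lay above the first sgNT library, so the groups overlapped, and the means were 1655 ± 112 CPM with sgLTN1 and 2014 ± 210 CPM with sgNT (SD, n = 3 each), a log2 ratio of -0.28. The H2A family had 500 CPM in the first sgLTN1 library, 492 in the second and 513 in the third, and 500, 513 and 558 CPM with sgNT. These values overlapped, and the means of 501 ± 10.7 CPM with sgLTN1 and 524 ± 30.6 CPM with sgNT (SD, n = 3 each) differed by less than the larger SD. H2A made up 13.0%, 13.1% and 12.3% of the core histone counts with sgLTN1 and 11.9%, 10.8% and 11.5% with sgNT, so its share was higher in each sgLTN1 library than in any sgNT library. The sums of members chosen with earlier results known were given no p.

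**Figure D1:**
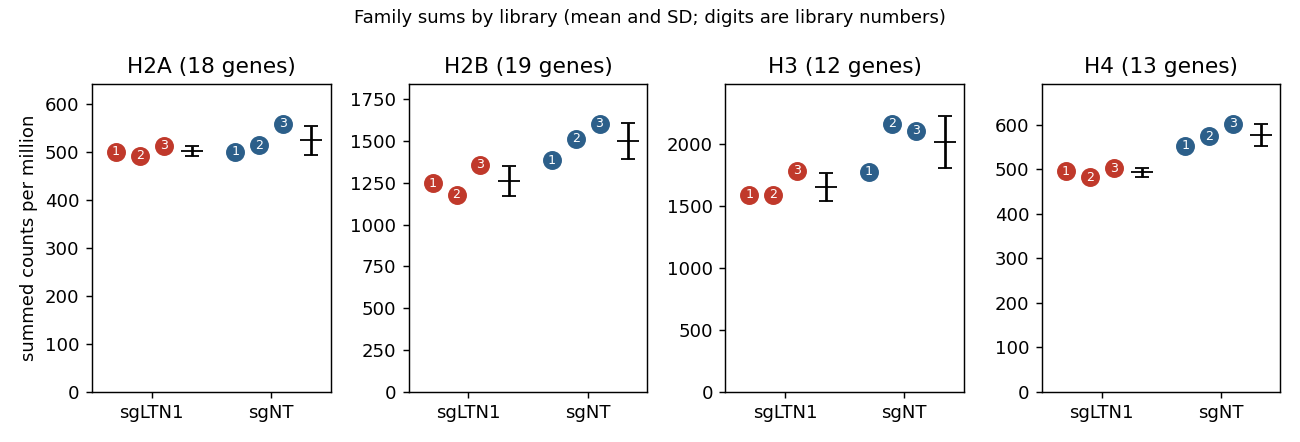
Summed CPM of each core histone family (vertical axis, from 0) in sgLTN1 libraries (red, left) and sgNT libraries (blue, right), with the mean and SD of 3 libraries and the library number in each point. The H2B and H4 groups do not overlap, while H2A and H3 have at least 1 sgLTN1 library at or above the lowest sgNT library.

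Of the 62 genes, 60 had enough counts for the test over 12782 genes. With edgeR's quasi-likelihood test and Benjamini-Hochberg adjustment over all tested genes, 0 of 60 passed an adjusted p of 0.05, where 0.18% of all tested genes did, 0.0939% with sgLTN1 lower. The smallest adjusted p among them was 0.0881, for H2bc26. At an unadjusted p under 0.05, 33 of 60 were lower with sgLTN1, against 7.56% of all tested genes, and 0 of 60 were higher, against 8% of all. Without the third sgLTN1 library 4 of the genes passed the adjusted threshold, as did 333 of all genes, and without the second sgLTN1 library 16 were lower at an unadjusted p under 0.05. DESeq2's Wald test on the same counts put 2 of the core histone genes past its adjusted threshold, as it did 227 of all genes. It put 23 of the core histone genes lower at an unadjusted p under 0.05. The shares of all genes at an unadjusted p were not taken for DESeq2 or without the second sgLTN1 library. The log2 fold change was below 0 for 48 of 60 genes, against 52.7% of all tested genes, and its median was -0.22, against -0.02 over all tested genes. Scaling to total counts put 55 of the 60 below 0. The 2013 other tested genes with a mean of at least 6 on the log2 CPM scale had a median of 0.07, with 33.9% of them below 0. Many core histone genes, among them most H2A genes, lie below that level, and those at that level were not set apart.

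The libraries of the groups did not overlap for 26 of the 60 genes with sgLTN1 lower, against 10.1% of all tested genes, and for 0 with sgLTN1 higher, against 10.1% of all. Read by family, sgLTN1 was lower without overlap for 2 of 17 tested H2A genes, 13 of 19 H2B genes, 4 of 12 H3 genes and 7 of 12 H4 genes. The median log2 fold change was -0.07 for H2A, -0.25 for H2B, -0.29 for H3 and -0.22 for H4, and every family median stayed below 0 under each scaling tried. With 1 library left out the H2A median ran from -0.097 to -0.036. The counts of copies in a family are not independent of each other, as shown for H3 below, so the number of genes does not stand for as many separate measurements.

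**Figure D2:**
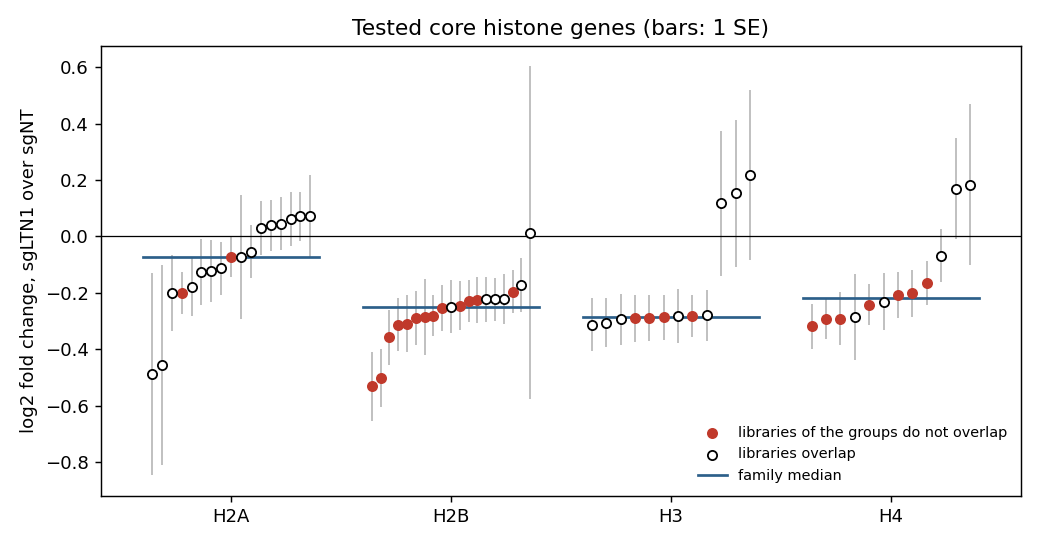
Log2 fold change of sgLTN1 over sgNT (vertical axis) for the 60 tested genes by family, each with 1 SE, filled where the libraries of the groups do not overlap, and with the family median as a line. Most H2B, H3 and H4 genes lie between -0.35 and -0.15, H2A genes lie around a median of -0.07, and 7 of the 12 genes above 0 were below 0 when scaled to total counts.

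Among the H2B genes, H2bc26 had 15.9, 15.1 and 15.8 CPM with sgLTN1 and 19.7, 22.8 and 23.5 CPM with sgNT. Its log2 fold change was -0.50 (SE 0.10, edgeR quasi-likelihood test, adjusted p = 0.0881). H2bc27 had 18.5, 18.1 and 21.0 CPM with sgLTN1 and 22.2, 29.4 and 30.0 CPM with sgNT, with a log2 fold change of -0.53 (SE 0.12, adjusted p = 0.109 in the edgeR test). For both genes every sgLTN1 library lay below every sgNT library. They rest on 77 to 238 reads per library and had the most negative log2 fold changes of all tested members.

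H2bc11 of the first printed pair had 92.8, 91.9 and 100.1 CPM with sgLTN1 and 108.4, 114.4 and 122.5 CPM with sgNT. The groups did not overlap, and its log2 fold change was -0.28 (SE 0.07, adjusted p = 0.128 in the edgeR test). H2bc1, known in mouse as a testis H2B gene, had 49.7, 42.3 and 46.6 CPM with sgLTN1 and 52.7, 59.6 and 65.1 CPM with sgNT. Its log2 fold change was -0.36 (SE 0.10, adjusted p = 0.144 in the edgeR test), also without overlap. How many of its reads could have come from other H2B copies was not tested. Its head-to-head partner H2ac1, known in mouse as the testis H2A gene, had 2 to 4 reads per library and was not tested.

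The other H2B genes lay close together. Log2 fold changes were -0.31 for both H2bc22 and H2bc13, -0.29 for H2bc3, -0.28 for H2bc21 and -0.25 for H2bc4, H2bc12 and H2bc9. They were -0.23 for H2bc23 and H2bc8, -0.22 for H2bc24, H2bc6 and H2bc15, -0.20 for H2bc7 and -0.17 for H2bc14. H2bc18, with 2 to 27 reads per library, had a log2 fold change of 0.01 with an SE of 0.59, and it went below 0 under scaling to total counts. It was the only tested H2B gene above 0. Of the 19, 16 were lower at an unadjusted p under 0.05, where 7.56% of all tested genes were. Adjusted p-values of the 19 ran from 0.0881 to 0.998 (edgeR quasi-likelihood test).

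Of the 12 H3 genes, 9 lie on chromosome 13 and 3 on chromosome 3. H3c3 on chromosome 13 had 186, 181 and 200.3 CPM with sgLTN1 and 210.2, 246 and 231 CPM with sgNT. Its 3 sgLTN1 libraries lay below its 3 sgNT libraries, with a log2 fold change of -0.28 (SE 0.07, adjusted p = 0.131 in the edgeR test). The other 8 copies on chromosome 13 were near it, at -0.31 for H3c10 and H3c8, -0.29 for H3c1, H3c6, H3c7 and H3c11, and -0.28 for H3c2 and H3c4. All 9 were lower at an unadjusted p under 0.05, where 7.56% of all tested genes were. Their adjusted p-values were 0.131 to 0.196 (edgeR quasi-likelihood test). For 4 of the 9 the groups did not overlap, against 10.1% of all tested genes with sgLTN1 lower.

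The 3 copies on chromosome 3 held 14 to 45 reads per library, against 696 to 2270 for the copies on chromosome 13. H3c13 had 3.34, 2.28 and 4.52 CPM with sgLTN1 and 3.21, 2.35 and 3.02 CPM with sgNT, which overlap, and a log2 fold change of 0.22 (SE 0.30). H3c14 had a log2 fold change of 0.15 (SE 0.26) and H3c15 one of 0.12 (SE 0.26), and the smallest adjusted p of the 3 was 0.787 (edgeR quasi-likelihood test). Without the second sgNT library H3c14 was at -0.023 and H3c15 at -0.031. At this depth no difference was detectable for these copies, and whether they differ from the copies on chromosome 13 was not tested.

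The copies of H3 varied together from library to library, with less scatter around a shared course than separate counting of reads would give. A chi-square of the 9 chromosome 13 copies against constant proportions over the 6 libraries was 0.493 per degree of freedom, where independent counting alone gives about 1. The 305 other genes with mean CPM in the range of these copies gave 10.6. The 3 chromosome 3 copies gave 0.0522. The families of tested genes gave 0.853 for H3, 1.11 for H2B, 1.24 for H2A and 1.40 for H4, so only the H3 family lay below 1. These sets hold genes of lower counts, and no other genes of their level were set beside them. H2ac18 and H2ac19 differed by at most 1 read in any library, and H2bc23 and H2bc24 by at most 1.85%. Of 468 pairs of genes within a family, 6 differed by at most 5% in every library. The same reads entering several copies was not tested, since no file used here holds the reads.

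**Figure D3:**
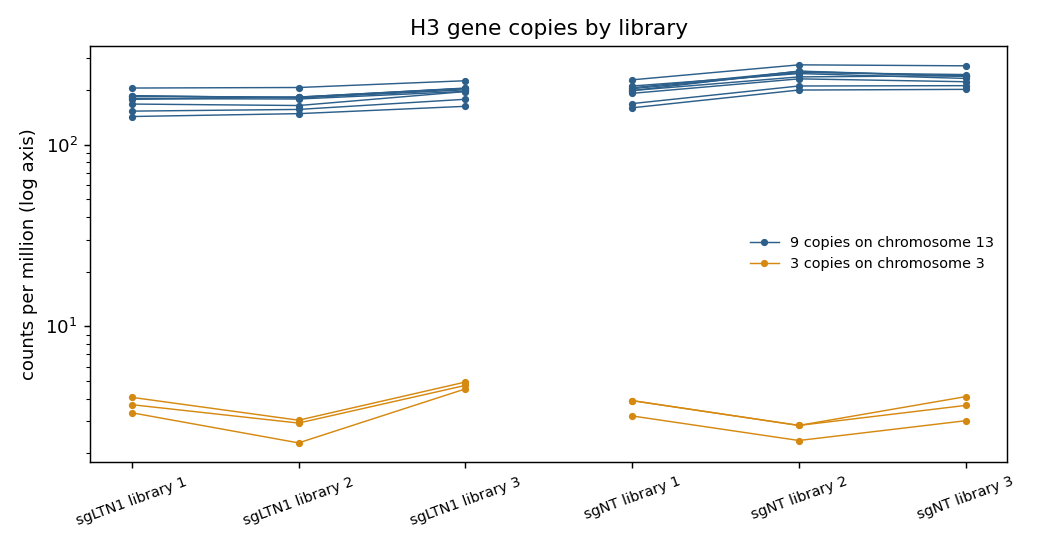
CPM (log axis) of the 12 H3 genes in the 3 sgLTN1 libraries (left) and the 3 sgNT libraries (right), with lines joining the values of 1 gene within a group. The 9 copies on chromosome 13 run in parallel and the first sgNT library is their lowest sgNT library, while the 3 copies on chromosome 3 lie between 2.28 and 4.93 CPM in both groups.

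Among the H4 genes, H4c4 had 77.2, 79.1 and 82.0 CPM with sgLTN1 and 91.7, 96.2 and 104 CPM with sgNT. H4c14, the H4 gene on chromosome 3, had 59.8, 62.1 and 66.6 CPM with sgLTN1 and 79.3, 73.0 and 82.6 CPM with sgNT. Neither gene's groups overlapped, with log2 fold changes of -0.29 (SE 0.07) for H4c4 and -0.32 (SE 0.08) for H4c14 and an adjusted p of 0.124 for both (edgeR quasi-likelihood test). Log2 fold changes were -0.29 for H4c18 and H4c9, -0.24 for H4c6, -0.23 for H4c17, -0.21 for H4c3, -0.20 for H4c1, -0.16 for H4c12 and -0.07 for H4c11. H4c2 at 0.17 (SE 0.18) and H4c8 at 0.18 (SE 0.29) were above 0. Of the 12, 7 were lower at an unadjusted p under 0.05, where 7.56% of all tested genes were. H4c16 had 8 to 13 reads with sgLTN1 and 2 to 15 with sgNT and was not tested.

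Among the H2A genes, H2ac25 had 80.1, 78.8 and 83.0 CPM with sgLTN1 and 94.7, 85.6 and 97.9 CPM with sgNT. Its groups did not overlap, and its log2 fold change was -0.20 (SE 0.07, adjusted p = 0.233 in the edgeR test). It was the only 1 of the 17 tested H2A genes lower at an unadjusted p under 0.05, where 7.56% of all tested genes were. H2ac15 also had groups that did not overlap, at 61.5, 57.2 and 59.0 CPM with sgLTN1 and 63.3, 62.2 and 61.7 CPM with sgNT, but a log2 fold change of only -0.07 (SE 0.07). H2ac19 at -0.49 (SE 0.36) and H2ac18 at -0.46 (SE 0.35) rest on 9 to 28 reads per library, and their groups overlapped. With 1 library left out these values ran from -0.77 to -0.13 for H2ac19 and from -0.76 to -0.14 for H2ac18.

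The remaining H2A genes lay on both sides of 0. Log2 fold changes were -0.20 for H2ac12, -0.18 for H2ac6, -0.13 for H2ac13, -0.12 for H2ac20, -0.11 for H2ac8, -0.07 for H2ac21 and -0.05 for H2ac23. They were 0.07 for H2ac10 and H2ac22, 0.06 for H2ac7, 0.05 for H2ac11, 0.04 for H2ac4 and 0.03 for H2ac24, and all 6 of these were below 0 when libraries were scaled to total counts. Adjusted p-values of the 17 tested H2A genes ran from 0.233 to 0.942 (edgeR quasi-likelihood test).

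In each of the 8 head-to-head pairs with both genes tested, the log2 fold change of the H2A gene was above that of its H2B partner. In the printed stretch of the first pair, H2ac11 was at 0.05 (SE 0.09) and H2bc11 at -0.28 (SE 0.07). In the second, H2ac8 was at -0.11 (SE 0.09) and H2bc8 at -0.23 (SE 0.08). The difference between the log2 fold changes of partners ran from 0.04 for H2ac12 and H2bc12 to 0.38 for H2ac22 and H2bc22, with a median of 0.18. The starts of these pairs lay 164 to 249 bases apart. On chromosome 13, all tested H2A genes ran from -0.20 to 0.07 and all tested H2B genes from -0.36 to -0.17. Most H2A genes there thus lay above most H2B genes, paired or not, and the order within pairs is not particular to pairing. The difference between partners was not tested, and the pairs are not independent, since their genes belong to families whose copies may share reads.

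**Figure D4:**
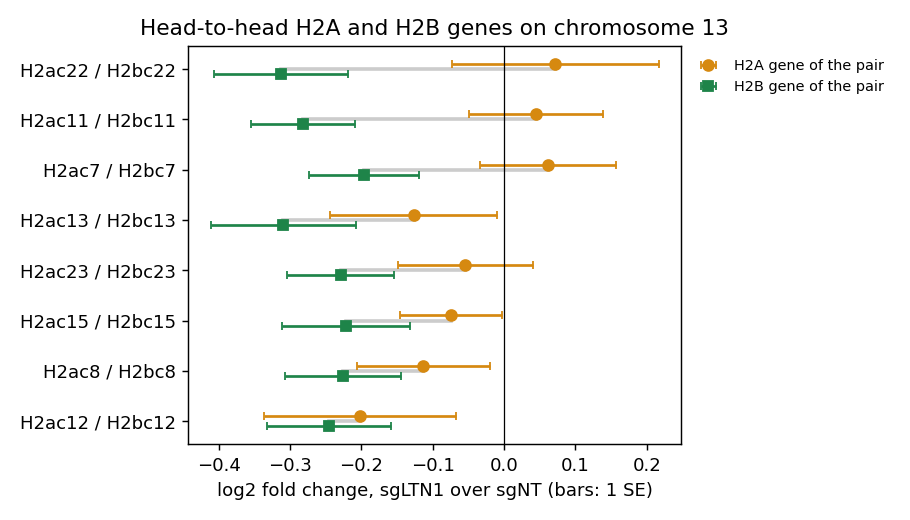
Log2 fold change of sgLTN1 over sgNT (horizontal axis, with 1 SE) of the H2A gene (circle) and the H2B gene (square) of 8 head-to-head pairs, ordered by their difference. The H2A gene lies to the right of its partner in all 8 pairs, by 0.04 to 0.38, and the SE bars of some pairs overlap.

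In the authors' deposited table, 32 of the 62 genes had an adjusted p, and the log2 fold change was below 0 for 31 of the 32. H2ac4, at 0.06, was the exception in the authors' deposited table. Members above 0 but without an adjusted p there were H2ac7, H2ac10, H2ac11, H2ac22, H2ac24, H2bc18, H3c13 to H3c15, H4c2, H4c8 and H4c16. The count of 31 therefore leaves out most members that lay above 0. The share below 0 over all genes with an adjusted p there was not taken. By an adjusted p under 0.05, the authors' deposited table called 2 of the 32 lower, against 1.63% of its 2697 genes with an adjusted p called lower and 6.79% called higher. These 2 were H3c10, with a log2 fold change of -0.29 and an adjusted p of 0.0470, and H3c3, with -0.26 and 0.0490, in the authors' deposited table.

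The linker histones, which bind the DNA that enters and leaves the nucleosome, are made from the same clusters in the case of H1f1 to H1f5. Their summed level was 1368, 1298 and 1464 CPM with sgLTN1 and 1674, 1768 and 1794 CPM with sgNT, with no overlap and a ratio of means of 0.789. This sum, like those of the lists that follow, is over every listed gene in the table. All 7 listed genes were tested and had log2 fold changes below 0, with a median of -0.34, where 52.7% of all tested genes were below 0. H1f2 to H1f5 ran from -0.38 to -0.30, with groups that did not overlap. H1f10 on chromosome 6 was at -0.23 (SE 0.11) and H1f0 on chromosome 15 at -0.04 (SE 0.08), and their groups overlapped. H1f1 was the single one past the threshold: it had 73.7, 65.9 and 70.3 CPM with sgLTN1 and 105, 112 and 106 CPM with sgNT, and it fell by 0.62 on the log2 scale (SE 0.07, edgeR quasi-likelihood test, adjusted p = 0.00696). Without the second sgLTN1 library, or without the second sgNT library, 0 genes of the pathway lists passed. H1f1 was chosen in a list made with earlier results of these data known, and its fall is not independent support for the core histone values.

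The replication-independent histone variants are made outside S phase as well. Of 9 tested variants 0 passed the threshold and 9 had log2 fold changes below 0, with a median of -0.12, where 52.7% of all tested genes were below 0. Their sum was 360, 346 and 381 CPM with sgLTN1 and 387, 399 and 390 CPM with sgNT, a ratio of means of 0.924 without overlap. The smallest p-values belonged to H3f3b, an H3.3 gene, at -0.27 (SE 0.11), H2az1, an H2A.Z gene, at -0.12 (SE 0.07), and Macroh2a2, a macroH2A gene, at -0.16 (SE 0.10). Whether the core histones differed more than the variants was not tested.

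Genes of S phase and DNA replication stand for the phase in which core histones are made. Their sum was 2445, 2435 and 2398 CPM with sgLTN1 and 2562, 2705 and 2648 CPM with sgNT, without overlap and with a ratio of means of 0.920. Of 48 tested genes 0 passed the threshold, and 44 had log2 fold changes below 0, with a median of -0.13 and a highest value of 0.36, where 52.7% of all tested genes were below 0. At an unadjusted p under 0.05, 11 were lower and 0 higher, against 7.56% and 8% of all tested genes, and without overlap 17 were lower and 1 higher, against 10.1% of all tested genes in each direction. Pold2, a subunit of DNA polymerase delta, had -0.35 (SE 0.10), Dut, which clears dUTP, -0.30 (SE 0.09), and Rnaseh2a, a subunit of RNase H2, -0.29 (SE 0.09), and the smallest adjusted p in the list was 0.159 (edgeR quasi-likelihood test). The part of S phase in the core histone values was not tested.

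Another list holds the genes that transcribe, process and degrade histone mRNA. Their sum was 1203, 1211 and 1180 CPM with sgLTN1 and 1233, 1213 and 1186 CPM with sgNT, and the groups overlapped. Of 33 tested genes 0 passed the threshold and 21 had log2 fold changes below 0, with a median of -0.05, where 52.7% of all tested genes were below 0. At an unadjusted p under 0.05, 4 were lower and 0 higher, against 7.56% and 8% of all tested genes. Without overlap 7 were lower and 2 higher, against 10.1% of all tested genes in each direction. Slbp, the stem-loop binding protein, had 48.1, 48.5 and 46.4 CPM with sgLTN1 and 54.3, 57.0 and 52.6 CPM with sgNT, a log2 fold change of -0.20 (SE 0.08, adjusted p = 0.240 in the edgeR test). The smaller p-values of the list belonged to Lsm1, a decay factor, at -0.96 (SE 0.28), and Snrpe, an Sm protein, at -0.33 (SE 0.10). Lsm1 rests on 9 to 42 reads per library, and its adjusted p was 0.160 in the edgeR test.

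Histone chaperones and importers, which escort histones from ribosome to DNA, also overlapped as a sum, at 2674, 2703 and 2549 CPM with sgLTN1 and 2739, 2749 and 2650 CPM with sgNT. Of 33 tested genes 0 passed the threshold and 20 had log2 fold changes below 0, with a median of -0.06, where 52.7% of all tested genes were below 0. At an unadjusted p under 0.05, 6 were lower and 0 higher, against 7.56% and 8% of all tested genes. Without overlap 9 were lower and 0 higher, against 10.1% of all tested genes in each direction. Dnajc9, a chaperone of H3 and H4, had -0.29 (SE 0.09), Nasp, which holds soluble H3 and H4, -0.23 (SE 0.08), and Anp32e, a chaperone of H2A.Z, -0.18 (SE 0.07), with adjusted p-values of 0.183 or more in the list (edgeR quasi-likelihood test).

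**Figure D5:**
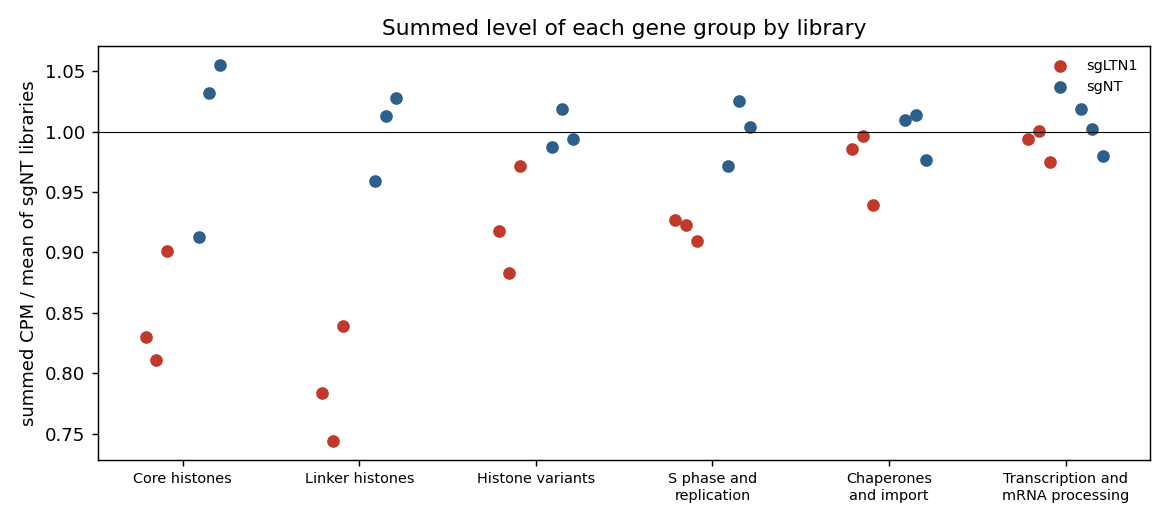
Summed CPM of each gene group in every library divided by the mean of the sgNT libraries (vertical axis, which does not start at 0), sgLTN1 in red on the left of each group and sgNT in blue on the right. The core and linker histones have their sgLTN1 libraries at 0.744 to 0.901 of the sgNT mean, and the processing and chaperone groups overlap.

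Markers of cell types were read beside these values, with sums over all listed genes and log2 fold changes for those with enough counts. Of 5 tested markers of other islet endocrine cells 0 passed the threshold, while 2 were higher without overlap and at an unadjusted p under 0.05. Among all tested genes, 10.1% were higher without overlap and 8% were higher at an unadjusted p under 0.05. Sst, the hormone of delta cells, had 40.5, 42.0 and 47.5 CPM with sgLTN1 and 28.9, 30.6 and 31.7 CPM with sgNT, a log2 fold change of 0.50 (SE 0.09, edgeR quasi-likelihood test, adjusted p = 0.062). Ppy, the hormone of pancreatic polypeptide cells, had 4.97, 6.95 and 6.37 CPM with sgLTN1 and 2.06, 3.96 and 3.88 CPM with sgNT, a log2 fold change of 0.82 (SE 0.26, adjusted p = 0.176 in the edgeR test). The sum of the 7 listed genes, most of it from the glucagon gene Gcg, was 583 to 663 CPM with sgLTN1 and 586 to 617 CPM with sgNT.

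Of 13 tested beta cell markers 0 passed the threshold, and 10 had log2 fold changes above 0. Of all tested genes 52.7% were below 0, and of those outside the core histones with a mean of at least 6 on the log2 CPM scale, 33.9%. At an unadjusted p under 0.05, 3 markers were higher and 0 lower, against 8% and 7.56% of all tested genes. Without overlap 5 were higher and 1 lower, against 10.1% of all in each direction. The lower one was Pdx1, at -0.12 (SE 0.07). The markers with the smallest p-values were Chga, a secretory granule protein, at 0.19 (SE 0.05), Slc30a8, the zinc transporter of insulin granules, at 0.23 (SE 0.07), and G6pc2, a glucose-6-phosphatase of islets, at 0.15 (SE 0.05). The sum of the 14 listed genes was 139250 to 160147 CPM with sgLTN1 and 135704 to 148731 CPM with sgNT. Of 12 listed stromal, endothelial and blood cell markers 4 were tested, 0 passed the threshold and all 4 had groups that overlapped. The sum of the 12 was 36.8 to 41.1 CPM with sgLTN1 and 41.9 to 49.97 CPM with sgNT, without overlap. The part of cell makeup in the core histone values was not tested.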

How the data were processed

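Ribosome profiling libraries of MIN6 cells, 3 with sgLTN1 and 3 with sgNT, were grouped by the genotype in the labels. The authors deposited whole-number read counts per gene. The submitters' processing notes name build GRCm39 and the tools featureCounts 2.12.3, SAMtools 1.9, STAR 2.7.11a, Bowtie2 2.5.4, UMI-tools 1.1.2 and fastp 0.23.4, with no settings. For annotation, strand, footprint selection and reads with several alignments, the settings were not given in the sources used here. A second deposited table holds, per the file headers, DESeq2 results (1.38.3 in the notes): log2 fold change with its error, mean normalized count as a signal, Wald statistic as a score, and p-value. Its direction was checked against the counts (Pearson's r across genes of the log2 fold changes 0.996, where genes are not independent replicates).

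Counts were tested in R 4.3.3 with edgeR 4.0.16 (limma 3.58.1): filterByExpr defaults, which left 12782 genes, TMM scaling (factors 0.954 to 1.04), and the quasi-likelihood test with group as the only term. Adjusted p-values are Benjamini-Hochberg over all tested genes, and 0.05 was the threshold. CPM are counts relative to the TMM-scaled library size. The biological coefficient of variation came to 8.92%. The code was tested on simulated data. Replicates of a group differed by more than sampling noise (chi-square per degree of freedom 2.61 to 7.19). Same-numbered libraries deviated from their group means with correlations of -0.048, 0.067 and 0.088. These correlations are over all tested genes and include counting noise, so they cannot decide whether the numbers pair libraries. Alternatives were DESeq2 1.42.0, its size factors, total counts, removal of an abundance trend, other count filters, a replicate block, and each library left out.

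The members and gene lists were chosen with earlier results of these data known. Every tested member is named. In each list the genes past the threshold are named, or otherwise the 3 with the smallest p. The other linker histones were named after their values were seen. Marker lists are given as sums and counts. Markers higher at an unadjusted p under 0.05, and the beta cell marker lower without overlap, were named after their values were seen. RefSeq tables of build GRCm38 gave chromosomes (57 of 62 members matched by symbol) and promoter sequences. The RefSeq promoter window was searched over the 250 bases before the start. Footprint reads are not independent molecules beyond what the authors' processing removed, and counts limit the precision of genes with few reads.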

Additional observations from a re-analysis of the deposited data

How the results depend on the processing

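The direction of the family sums held under every scaling and left-out library: the log2 ratio of sgLTN1 over sgNT stayed below 0 for H2A, H2B, H3 and H4. Scaling to total counts moved it to -0.14 for H2A and to -0.30 for H4, against -0.06 and -0.23 with TMM. Leaving out 1 library gave -0.08 to -0.01 for H2A and -0.23 to -0.19 for H4.

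The count of core histone genes past the threshold, 0 in the report and all lower elsewhere, depended on the setting. It was 2 when every gene with a count was kept (H2bc27, adjusted p = 0.0329, and H2bc26, 0.0427), 2 with DESeq2's Wald test (H3c10 and H3c3), and 0 to 4 with 1 library left out, where the 4 came without the third sgLTN1 library (H4c14, H2bc27, H2bc26 and H3c7, edgeR adjusted p). With the replicate block it was 19, and whether the replicate numbers pair the libraries is not given in the labels. Calls at an unadjusted p under 0.05 and lower, 33 in the report, numbered 16 to 35 with 1 library left out, and 16 came without the second sgLTN1 library. The shares of all genes at an unadjusted p were not taken for these settings. Over all genes, 23 passed the threshold, against 42 with total counts, 222 with every gene with a count, 227 with DESeq2, 609 with the replicate block, and 4 to 333 with 1 library left out. Genes of the pathway lists past it, 1 in the report, numbered 4 with total counts, 3 with the abundance trend removed, 4 with every gene with a count, 5 with DESeq2, 5 with the replicate block, and 0 to 5 with 1 library left out. The cause of these shifts was not tested.

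Total counts turned the log2 fold change of H2bc18 to -0.061, H2ac22 to -0.0055, H2ac24 to -0.047, H2ac11 to -0.031, H2ac10 to -0.0053, H2ac7 to -0.015 and H2ac4 to -0.037. Leaving out 1 library gave -0.18 to 0.048 for H2ac21, -0.031 to 0.29 for H3c15, -0.023 to 0.34 for H3c14, -0.32 to 0.77 for H2bc18, -0.0054 to 0.25 for H2ac22, -0.015 to 0.093 for H2ac24, -0.0025 to 0.11 for H2ac11, -0.0058 to 0.39 for H4c8, -0.0011 to 0.12 for H2ac7 and -0.0090 to 0.14 for H2ac4. It gave -0.20 to -0.0031 for H2ac13, -0.090 to -0.0028 for H2ac23, -0.10 to -0.036 for H2ac15 and -0.40 to -0.16 for H4c9. None of these genes passed the threshold in the report. Depth limits H3c13 to H3c15, H2ac18, H2ac19, H2ac21, H2bc18 and H4c8, which hold under 50 reads in each library.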
